A study of Mus musculus with 56 samples.

Results

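Transcripts of 10 genes of the insulin and FOXO fasting response (Insr, Irs2, Pik3r1, Foxo1, Foxo3, Txnip, Ddit4, Sesn1, Sesn3 and Bcl6) were followed through the day in the anterior hypothalamus of mice fed in the light or in the dark. They were picked by name, with earlier results of these data known, among 17564 genes measured by RNA sequencing, whose rows are NCBI Gene IDs. All 10 were found. Counts set below against the share of all transcripts are therefore a description and no test of the set. The 56 animals were C57BL/6J female mice aged 9 weeks, kept under a 12 h light and 12 h dark cycle and given food for 12 h a day during 7 days. In the 28 mice on day time-restricted feeding (DRF) food was present in the light, from zeitgeber time (ZT) 0 to ZT12, and in the 28 mice on night time-restricted feeding (NRF), the reference, from ZT12 to ZT24. In each regimen 4 mice were sampled at each of 7 time points 4 h apart, from ZT0 to ZT24, with different mice at ZT0 and ZT24. The labels give no genetic change, and neither freely fed mice nor mice fasted beyond the daily 12 h are among the groups. The whole dissected region was sequenced, so a value is a mean over neurons, glia and vessels.

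When insulin binds its receptor, adaptor proteins recruit phosphoinositide 3-kinase, and the kinase AKT then phosphorylates FOXO transcription factors and keeps them out of the nucleus. In a fast insulin falls, FOXO factors return to the nucleus, and genes they bind are switched on. Among those are Irs2 and Insr themselves, the sestrins and Bcl6. Txnip and Ddit4 respond to glucose, glucocorticoids and energy stress as well. In the hypothalamus the same pathway acts in neurons that control food intake and glucose output by the liver.

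RefSeq promoters of GRCm38.p6, from 250 bases before to 50 after a transcription start, were held for 9 of the 10 genes, with 12 promoters among them. Each was searched on both strands for GTAAACA, the core of the FOXO binding motif, and for CACGTG, the E-box bound by clock factors and by glucose-sensing factors. GTAAACA was found in the Txnip promoter and in the first Sesn1 promoter, and in 3.65% of all 32851 promoters of that length. CACGTG was found in the Irs2 promoter and in the first Bcl6 promoter, not in the other Bcl6 promoter, and in 7.15% of all promoters. Only exact matches were counted. A promoter without one, such as that of Txnip for CACGTG, may still hold variant sites for the same factors. The 4 promoters that hold a motif are printed because they belong to genes whose levels are set out below, with the motif in capitals and each read 5′ to 3′ along the gene's own strand.
Txnip, chr3:96557707-96558006, plus strand: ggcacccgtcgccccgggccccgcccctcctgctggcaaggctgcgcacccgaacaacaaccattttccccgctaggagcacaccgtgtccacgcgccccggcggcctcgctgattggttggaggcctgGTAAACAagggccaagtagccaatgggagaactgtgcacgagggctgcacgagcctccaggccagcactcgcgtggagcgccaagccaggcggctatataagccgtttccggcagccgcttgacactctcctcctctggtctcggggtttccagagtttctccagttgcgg
Sesn1, chr10:41810324-41810623, plus strand: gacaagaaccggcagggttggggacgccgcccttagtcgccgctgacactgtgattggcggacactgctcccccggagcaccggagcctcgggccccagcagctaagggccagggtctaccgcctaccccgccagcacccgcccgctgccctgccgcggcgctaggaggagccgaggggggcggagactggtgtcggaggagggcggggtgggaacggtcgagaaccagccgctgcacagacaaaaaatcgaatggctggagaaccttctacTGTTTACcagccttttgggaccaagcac
Irs2, chr8:11008880-11009179, minus strand: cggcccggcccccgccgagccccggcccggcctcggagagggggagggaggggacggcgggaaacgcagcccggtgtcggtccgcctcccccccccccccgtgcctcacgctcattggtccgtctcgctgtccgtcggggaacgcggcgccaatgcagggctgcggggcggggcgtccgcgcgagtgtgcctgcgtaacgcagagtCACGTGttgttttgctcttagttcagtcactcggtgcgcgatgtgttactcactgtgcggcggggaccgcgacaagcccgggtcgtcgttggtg
Bcl6, chr16:23988803-23989102, minus strand: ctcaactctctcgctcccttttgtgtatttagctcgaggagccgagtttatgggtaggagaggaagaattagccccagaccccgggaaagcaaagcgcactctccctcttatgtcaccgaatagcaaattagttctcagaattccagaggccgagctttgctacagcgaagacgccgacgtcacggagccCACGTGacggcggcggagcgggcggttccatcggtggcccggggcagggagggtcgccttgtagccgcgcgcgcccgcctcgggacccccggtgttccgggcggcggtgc
In Txnip the motif begins 121 bases before the start, in Irs2 44 bases and in Bcl6 60 bases before it. In Sesn1 the reverse complement of the FOXO core lies after the start, from 22 bases downstream. A match of letters is a description of the sequence and does not show that a protein binds there.

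Levels are given in CPM, the reads of a gene scaled to a common library size and worked back from the deposited values, and differences on the log2(CPM + 1) scale. Normalized library sizes lay between 29591268 and 34493353 reads, and the members had between 345 and 3672 reads per library, for which counting error alone (Poisson) gives a coefficient of variation of 1.65 to 5.38%. The SD between the 4 mice was above the counting SD in 127 of 140 combinations of a gene and a group, with a median ratio of 2.89. Libraries of the same group correlated with a median Pearson r of 0.997 over all genes (84 pairs, lowest 0.986). Of the 14 groups, DRF at ZT16 held 2 libraries that stood apart, replicates 3 and 4. Their level rose with the GC content of the transcript, by 0.20 and 0.31 log2 units per SD of GC content, against -0.097 to 0.094 in the other 54 libraries. Results that rest on them are given with and without them. The level also changed with transcript length, from -0.096 (NRF ZT4 replicate 2) to 0.075 (DRF ZT24 replicate 4) log2 units per SD of length. This trend went with the group: all NRF libraries at ZT0, ZT4 and ZT8 had negative slopes, and all at NRF ZT24 had positive ones, 0.032 to 0.049. It was left in the main fits. Sesn3 (15269 bases), Insr (13746) and Pik3r1 (10079) are the longest members. As to the tissue, 9 of 10 hypothalamic region markers passed the filter on low values. Among them were Oxt at a mean of 267.6 CPM and Avp at 172.1 CPM. Galp, of the arcuate nucleus further back, was at 0.019 CPM, but Agrp and Pomc, of the same nucleus, passed the filter. The markers therefore do not show that the arcuate nucleus was left out.

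Per kilobase of exon, Sesn1 was the highest of the 10 genes at 14.7 ± 0.831 CPM per kb (mean ± SD over all 56 mice), followed by Ddit4 at 12.3 ± 1.92, Pik3r1 at 10.2 ± 0.910 and Foxo3 at 8.36 ± 0.625 CPM per kb. Next came Txnip at 7.20 ± 1.81, Irs2 at 6.66 ± 0.868, Insr at 4.88 ± 0.401 and Foxo1 at 4.53 ± 0.431 CPM per kb. Bcl6, at 3.80 ± 0.639, and Sesn3, at 1.98 ± 0.460 CPM per kb, were the lowest. Only the steps from Pik3r1 to Foxo3, from Irs2 to Insr and from Bcl6 to Sesn3 were larger than the SDs of the neighbouring genes added together.

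**Figure D1:**
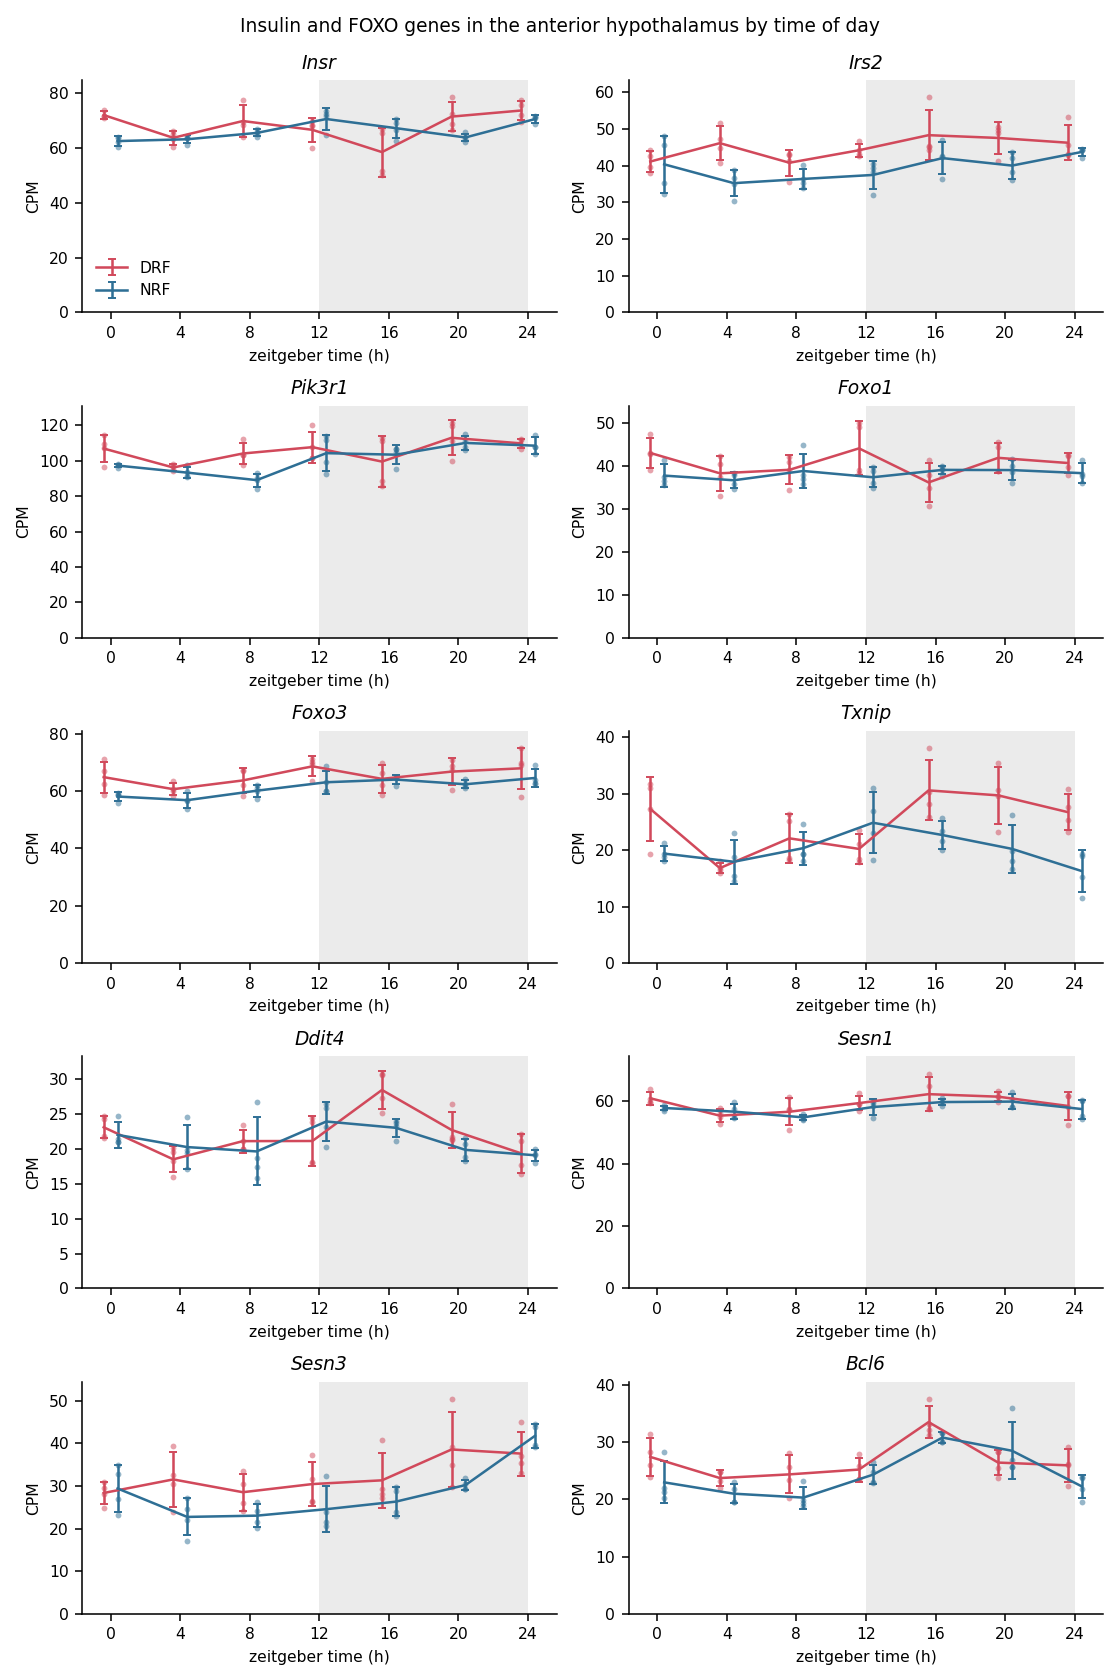
Level of each of the 10 genes in CPM (linear axis from 0) against zeitgeber time in hours. Points are single mice, lines join group means with bars of 1 SD (n = 4 mice), red is DRF, blue is NRF and grey marks the dark phase. Txnip was at 30.6 CPM in DRF and 22.7 CPM in NRF at ZT16, and at 16.8 and 17.9 CPM at ZT4.

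The comparisons asked whether each transcript followed the time of day, the food window or the regimen. Adjusted p-values are from limma and cover all 15945 transcripts tested, and the rhythm test within a regimen covers 16245. A 24-h component at a fixed clock time, the mean of the cosines of both regimens and called the shared component below, passed the test for 7 of the 10 genes, against 21.2% of all transcripts. The test does not show a rhythm in each regimen or equal timing in both. The rhythm differed between regimens for 1 gene, Txnip, against 11.1% of all transcripts. The mean level over the 7 time points was higher in DRF for 5 genes and lower for none, against 5.65% of all transcripts called higher and 4.95% called lower, 10.6% in all. Between fasted and fed mice 1 gene, again Txnip, differed, being higher in fasted mice, against 15.8% of all transcripts, 7.13% higher and 8.71% lower. These comparisons use the same 56 mice and are therefore not independent of each other. In bulk tissue, less RNA per cell and fewer cells of a type cannot be told apart.

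Within the regimens, tested with JTK_CYCLE and Lomb-Scargle together, 5 genes were rhythmic in NRF against 27.6% of all transcripts: Bcl6 (adjusted p = 5.66e-05), Pik3r1 (0.000390), Sesn1 (0.000924), Sesn3 (0.00152) and Foxo3 (0.00382). Without 1 of the replicates the NRF call was lost for Foxo3 (replicate 1, 2 or 3, adjusted p from 0.0709 to 0.179), Sesn3 (replicate 1 or 3, 0.0516 and 0.0738), Pik3r1 (replicate 2, 0.0545) and Sesn1 (replicate 2, 0.0814). It was also lost for Foxo3 without ZT0 (0.0968) and for Sesn3 without ZT24 (0.477). The combination takes the p-values of the methods as independent, though both come from the same mice, so the combined p can be too small. With JTK_CYCLE alone the same 5 were called in NRF, with adjusted p from 0.00106 (Bcl6) to 0.0105 (Foxo3). In DRF the combined test called 0 genes, against 0.813% of all transcripts. An unadjusted p under 0.05 was reached there by 3 of the 10, namely Txnip, Ddit4 and Bcl6, and by 4.31% of all transcripts. Without the 2 libraries that stood apart it was reached by Txnip, Sesn1 and Pik3r1, and by 4.24% of all transcripts. With limma's F test of a 24-h cosine in place of that pair, the DRF calls were Txnip, Ddit4, Sesn1 and Bcl6, 4 genes against 4.08% of all transcripts. In NRF the cosine called Bcl6, Sesn3, Pik3r1 and Txnip, again 4, against 28.1%. Without the 2 DRF ZT16 libraries that stood apart, the cosine's adjusted p in DRF was 0.214 for Ddit4 and 0.134 for Bcl6, which were then no longer called, and 0.00432 for Txnip and 0.00381 for Sesn1. Without 1 of the replicates the DRF cosine called 1 to 3 genes, without ZT16 1 and without ZT24 2, with Txnip called each time.

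**Figure D2:**
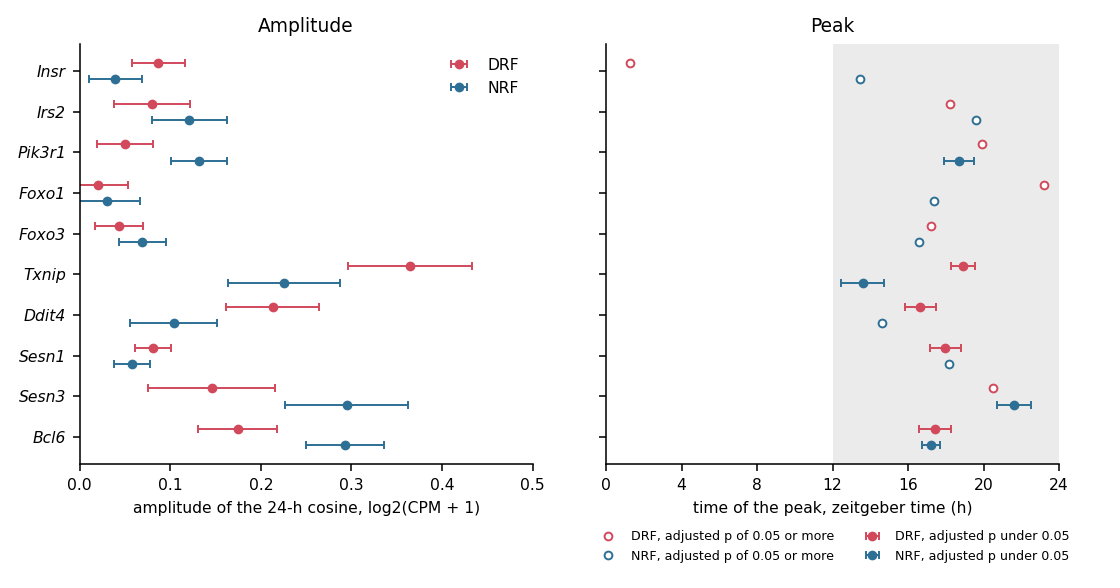
Amplitude in log2(CPM + 1) (left) and time of the peak in zeitgeber hours (right) of the fitted 24-h cosine, red for DRF and blue for NRF with 28 mice each, with bars of 1 SE; open points on the right, drawn without bars, had an adjusted p of 0.05 or more. All peaks called lay in the dark phase, and the Txnip peak was at ZT18.9 in DRF and ZT13.6 in NRF.

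Insr, the insulin receptor, is encoded on chromosome 8 (GENCODE vM21, GRCm38, chr8:3122061-3279617, minus strand). Its group means ranged from 58.5 ± 8.93 CPM (SD, n = 4) in DRF at ZT16 to 73.7 ± 3.57 CPM in DRF at ZT24. The adjusted p was 0.621 for the shared component, and the mean difference between regimens was 0.032 ± 0.023 (SE; adjusted p = 0.393). At ZT0, when DRF mice were at the end of their fast and NRF mice at the end of their meal, the 4 DRF mice had 70.9, 71.8, 73.9 and 71.5 CPM and the 4 NRF mice 62.3, 63.5, 60.2 and 64.2 CPM. All DRF values were above all NRF values there, and the difference was 0.20 ± 0.062 (SE; adjusted p = 0.0471), against 4.53% of all transcripts called at ZT0. At ZT24, the same clock time in other mice, the difference was 0.060 ± 0.062 (SE; adjusted p = 0.905). The call at ZT0 was lost whichever replicate number was left out (adjusted p from 0.0813 to 0.257), without ZT24 (0.0691) and on the deposited scale (0.109).

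At ZT16 Insr was lower in DRF by the test, at -0.21 ± 0.062 (SE; adjusted p = 0.0152), a time point at which 20.3% of all transcripts were called. The DRF mice had 67.1, 65.4, 51.5 and 50.2 CPM, and the low pair are the libraries that stood apart. Without them the difference was -0.021 ± 0.058 (SE; adjusted p = 0.933).

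Irs2 (chr8:10984681-11008458, minus strand), the adaptor that passes the signal from the receptor on and is itself a FOXO target, was higher in DRF than in NRF at every time point. Its mean over the 7 time points differed by 0.19 ± 0.037 (SE; adjusted p = 0.00134), a 14.1% higher level, with a 95% confidence interval of 0.11 to 0.26. The gap was widest at ZT4, 4 h into the meal of DRF mice and 4 h into the fast of NRF mice. There the DRF mice had 51.7, 40.7, 44.8 and 47.2 CPM and the NRF mice 38.9, 30.3, 36.7 and 35.0 CPM. The ranges did not overlap, and the difference of 0.38 ± 0.10 (SE; adjusted p = 0.0206) was called at a time point with 3.95% of all transcripts called, but was lost whichever replicate number was left out (adjusted p from 0.0626 to 0.125). At ZT0 the NRF mice had 35.3, 32.3, 45.7 and 48.1 CPM and spread across the whole DRF range of 38.0 to 44.2 CPM and beyond. A shared component of small amplitude was called, 0.10 ± 0.030 with a peak at ZT19.1 ± 1.03 h (SE; adjusted p = 0.0338). The call was lost whichever replicate number was left out, without ZT24 and without ZT16 (adjusted p from 0.0610 to 0.130).

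Pik3r1 (chr13:101680563-101768217, minus strand) encodes p85alpha, the regulatory subunit through which phosphoinositide 3-kinase docks on the adaptors. It had the most reads of the 10 genes and a shared component with an amplitude of 0.090 ± 0.022 and a peak at ZT19.0 ± 0.836 h (SE; adjusted p = 0.00724). In NRF the mice had 93.0, 88.9, 90.2 and 84.3 CPM at ZT8 and 111, 108, 115 and 106 CPM at ZT20. All 4 values at ZT20 were above all 4 at ZT8. Here and for DRF below, the groups were picked as the highest and lowest means, so the lack of overlap is no test of the rhythm. In DRF the 4 mice at ZT4 had 98.2, 95.5, 94.3 and 97.0 CPM and those at ZT20 had 99.8, 119.6, 121 and 111 CPM, all above those at ZT4. The highest DRF mice at ZT8 and ZT12 had 112 and 120.1 CPM, and no DRF rhythm of Pik3r1 was called (cosine by limma, adjusted p = 0.496). The shared component was no longer called without replicate 2 (adjusted p = 0.103). The DRF mice at ZT16 had 113, 111, 88.7 and 85.6 CPM, the low pair being the libraries that stood apart. Without them the shared amplitude was 0.11 ± 0.019 (adjusted p = 2.61e-05) and the mean level was called higher in DRF, by 0.087 ± 0.022 (SE; adjusted p = 0.00844), against 0.062 ± 0.025 (SE; adjusted p = 0.106) with them.

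Foxo1 (chr3:52268336-52353221, plus strand) and Foxo3 (chr10:42181841-42276755, minus strand) encode the FOXO factors on which the insulin signal ends. Foxo1 was not called with all libraries in the fit. Its NRF group means ran from 36.6 ± 1.85 CPM at ZT4 to 39.0 ± 0.990 CPM at ZT16 (SD, n = 4). Its shared component had an amplitude of 0.018 ± 0.026 (SE; adjusted p = 0.832), its regimen difference was 0.077 ± 0.032 (SE; adjusted p = 0.105), and its fasted minus fed difference was -0.030 ± 0.033 (SE; adjusted p = 0.564), with a 95% confidence interval of -0.10 to 0.036. Among DRF mice the widest spread was at ZT12, with 38.2, 38.9, 48.9 and 49.9 CPM. A pair of mice there was as high as any in the series and the other pair was at the level of the NRF mice.

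Foxo3 was higher in DRF by 0.087 ± 0.023 (SE; adjusted p = 0.00994), or 6.25%. At ZT0 the DRF mice had 58.7, 71.1, 67.2 and 62.6 CPM and the NRF mice 58.6, 55.9, 59.4 and 58.6 CPM. The lowest DRF mouse lay within the NRF range there and the other DRF mice above it. The regimen call was lost without replicate 2, 3 or 4 (adjusted p from 0.0579 to 0.110) and when trends with GC content, length and expression were removed (0.0672). In NRF, where its rhythm was called, the lowest group was ZT4, with 56.6, 53.8, 60.2 and 56.8 CPM, and the highest ZT24, with 63.8, 62.8, 62.6 and 69.2 CPM. The shared component of Foxo3 had an amplitude of 0.056 ± 0.019 (SE; adjusted p = 0.0611) and was not called, but it was called in 3 of 15 alternatives. The fasted minus fed difference of Foxo3 was -0.014 ± 0.023 (SE; adjusted p = 0.709).

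Txnip (chr3:96557957-96561883, plus strand) encodes thioredoxin-interacting protein, an arrestin-like protein that holds back glucose uptake and whose gene responds to glucose. It was the only one of the 10 genes to differ between fasted and fed mice and the only one whose rhythm differed between regimens. In DRF mice it was low in the food window, which was the light phase, and high in the fast, which was the dark phase. Within each regimen food and light change together, so their parts in such a pattern cannot be told apart. The mice had 18.0, 16.4, 16.003 and 16.8 CPM at ZT4, 18.2, 18.6, 25.1 and 26.4 CPM at ZT8 and 18.3, 17.8, 23.5 and 21.1 CPM at ZT12. After food was removed they had 38.0, 25.9, 30.2 and 28.1 CPM at ZT16, 23.2, 35.4, 29.5 and 30.6 CPM at ZT20 and 25.3, 30.7, 27.7 and 23.2 CPM at ZT24. Of the 12 fed mice 9 were below all 12 fasted mice of these times. At ZT0, again at the end of the fast, the values were 31.6, 19.3, 30.9 and 27.2 CPM, with replicate 2 well below the others. That mouse was also below some of the fed mice at ZT8 and ZT12, and the count of 9 does not cover ZT0.

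In NRF mice Txnip was highest at the end of the fast. The mice had 14.5, 15.4, 23.0 and 18.8 CPM at ZT4, 19.2, 18.1, 19.3 and 24.7 CPM at ZT8 and 18.3, 26.9, 23.1 and 31.0 CPM at ZT12, a stretch without food. During the meal they had 19.9, 21.6, 23.3 and 25.8 CPM at ZT16, 16.6, 18.1, 19.8 and 26.2 CPM at ZT20, 19.4, 15.3, 11.5 and 18.9 CPM at ZT24 and 18.7, 18.1, 19.4 and 21.3 CPM at ZT0. Fasted and fed NRF values overlapped, and the group means moved from 24.8 ± 5.43 CPM at ZT12 down to 16.3 ± 3.65 CPM at ZT24.

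At each clock time a fasted group stood against a fed group, and the mean of these differences for Txnip was 0.29 ± 0.063 (SE; adjusted p = 0.00101), a 22.4% higher level in fasted mice with a 95% confidence interval of 0.17 to 0.42. With the window edges (ZT0, ZT12 and ZT24) left out, the difference was 0.23 ± 0.080 (SE; adjusted p = 0.0580) and was not called. The DRF cosine had an amplitude of 0.36 ± 0.068 with a peak at ZT18.9 ± 0.642 h, and the NRF cosine 0.23 ± 0.062 with a peak at ZT13.6 ± 1.15 h. The difference between these rhythms had an adjusted p of 0.00814, and 0.00868 without the 2 libraries that stood apart. Without replicate 2 or 3 it was 0.0711 or 0.0675. Since the food windows lie 12 h apart, a component that follows food turns over between the regimens. It falls in the DRF minus NRF difference of the cosines, which, halved, had an amplitude of 0.20 ± 0.046 and a peak at ZT21.2 ± 0.898 h. A regimen's change in the amplitude or timing of a rhythm tied to the light cycle falls in the same difference. These cannot be told apart here. The shared component had an amplitude of 0.23 ± 0.048 with a peak at ZT17.0 ± 0.718 h (adjusted p = 0.00153).

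The mean level of Txnip was also higher in DRF, by 0.27 ± 0.061 (SE; adjusted p = 0.00404), or 20.3%. At ZT24 all 4 DRF mice were above all 4 NRF mice, and the difference was 0.70 ± 0.16 (SE; adjusted p = 0.0361), against 0.276% of all transcripts called at that time. Without replicate 3 the mean difference had an adjusted p of 0.0756, and without replicate 2 or 3 the ZT24 difference had 0.298 or 0.608. Over the 14 group means, the transcripts most like Txnip were Prodh, which begins proline breakdown (Pearson r = 0.904), Fam43a (r = 0.890) and Hr, a corepressor of nuclear receptors (r = 0.872). These correlations describe 14 means from the same libraries.

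Ddit4 (chr10:59949669-59951834, minus strand) encodes REDD1, an inhibitor of the growth kinase mTORC1 that is induced by energy stress and glucocorticoids. Its shared component was called, with an amplitude of 0.15 ± 0.036 and a peak at ZT15.98 ± 0.834 h (SE; adjusted p = 0.00442). In DRF the mice had 19.6, 15.98, 18.2 and 20.1 CPM at ZT4 and 27.2, 25.1, 30.8 and 30.6 CPM at ZT16. All 4 values at ZT16 were above the highest of ZT4, but these groups were picked as the highest and lowest DRF means, so this is no test of the rhythm. The highest pair at ZT16 are the libraries that stood apart, and without them the shared component had an amplitude of 0.13 ± 0.036 (adjusted p = 0.0204). Without ZT16 altogether the adjusted p was 0.230, and without replicate 3 it was 0.106. In NRF no rhythm of Ddit4 was called (cosine by limma, adjusted p = 0.212). The highest NRF group was ZT12, with 20.3, 23.1, 26.4 and 25.9 CPM, and at ZT8 a single mouse at 26.7 CPM stood above values of 15.8 to 18.6 CPM. The fasted minus fed difference was 0.11 ± 0.044 (SE; adjusted p = 0.0690), with a 95% confidence interval of 0.025 to 0.20, and was not called. It was called without replicate 1 (adjusted p = 0.0356).

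Sesn1 (chr10:41809935-41908424, plus strand) and Sesn3 (chr9:14275067-14333101, plus strand) encode sestrins, stress proteins that restrain mTORC1 and are FOXO targets. Sesn1 had the smallest amplitude among the shared components called for the 10 genes, 0.070 ± 0.014 with a peak at ZT18.1 ± 0.679 h (SE; adjusted p = 0.000957), and its spread between mice was small too. In NRF the mice had 54.0, 54.3, 55.0 and 55.9 CPM at ZT8 and 60.0, 60.9, 58.4 and 59.3 CPM at ZT16. All 4 values at ZT16 were above all 4 at ZT8, but these groups were picked after their values were seen, so this is no test of the rhythm. Its regimen difference was 0.033 ± 0.019 (SE; adjusted p = 0.269) and its fasted minus fed difference 0.017 ± 0.020 (SE; adjusted p = 0.592).

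Sesn3 had the latest shared peak, ZT21.3 ± 0.861 h, with an amplitude of 0.22 ± 0.048 (SE; adjusted p = 0.00265). In NRF the mice had 27.2, 17.0, 24.6 and 22.0 CPM at ZT4 and 39.7, 43.8, 44.5 and 39.0 CPM at ZT24, a 1.84-fold change in the group mean with no overlap. These groups were picked as the lowest and highest NRF means, so the lack of overlap is no test of the rhythm. The 4 NRF mice at ZT0, the same clock time as ZT24, had 26.9, 23.1, 32.7 and 34.9 CPM, below all mice at ZT24. In DRF the mice had 24.7, 29.5, 31.0 and 28.2 CPM at ZT0 and 29.6, 50.4, 39.2 and 34.9 CPM at ZT20, with values that overlapped. The amplitude was 0.29 ± 0.068 in NRF and 0.15 ± 0.070 in DRF, and the test of the rhythm difference gave an adjusted p of 0.406. The mean level was higher in DRF by 0.20 ± 0.057 (SE; adjusted p = 0.0190), a call lost without replicate 2, 3 or 4 (adjusted p from 0.0596 to 0.0958).

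Bcl6 (chr16:23965052-23988852, minus strand) encodes a transcriptional repressor that FOXO factors induce and that opposes STAT signalling. Its shared component had the smallest adjusted p of the 10 genes, with an amplitude of 0.23 ± 0.031 and a peak at ZT17.3 ± 0.445 h (SE; adjusted p = 3.73e-07). In DRF the mice had 24.8, 21.9, 24.9 and 23.3 CPM at ZT4 and 37.6, 33.2, 32.1 and 31.2 CPM at ZT16, and in NRF 18.9, 19.3, 23.1 and 19.9 CPM at ZT8 and 30.0, 30.0, 31.6 and 31.6 CPM at ZT16. In each regimen all values at ZT16 were above all values at the low point. These groups were picked as the highest and lowest means, so the lack of overlap is no test of the rhythm. The fitted peaks were ZT17.4 ± 0.840 h in DRF and ZT17.2 ± 0.502 h in NRF, and the rhythm difference had an adjusted p of 0.317. The mean level was higher in DRF by 0.14 ± 0.037 (SE; adjusted p = 0.0156), or 9.82%, and the fasted minus fed difference was -0.036 ± 0.039 (SE; adjusted p = 0.554). The regimen call was lost without replicate 1 or 4 (adjusted p = 0.122 or 0.0686), and without ZT0 the adjusted p was 0.0571.

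**Figure D3:**
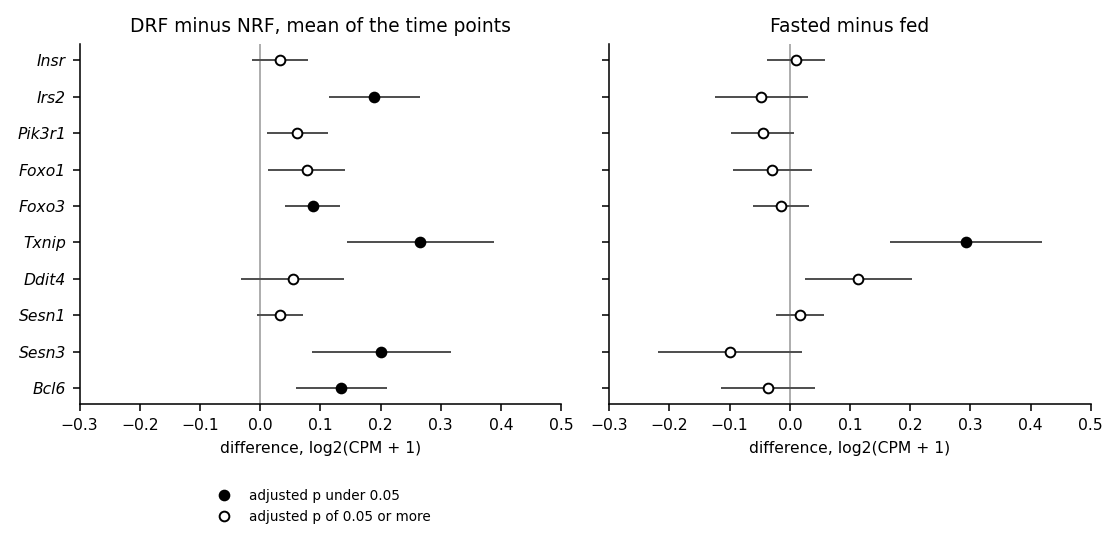
Differences on the log2(CPM + 1) scale with 95% confidence intervals from limma (56 mice), DRF minus NRF on the left and fasted minus fed on the right; filled points had an adjusted p under 0.05. On the left all 10 points lie above 0 and 5 are filled; on the right only Txnip, at 0.29, is filled.

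Across the regimens, all 10 differences in mean level were above 0, from 0.032 for Insr to 0.27 for Txnip, with a median of 0.082 against a median of -0.0024 over all transcripts tested. The 5 called were Irs2, Txnip, Foxo3, Bcl6 and Sesn3. Without the 2 DRF ZT16 libraries that stood apart, 8 were called, Insr, Foxo1 and Pik3r1 in addition, and without all ZT16 mice 8. Without replicate 3 or without replicate 4, 2 were called. The trend with transcript length given above, negative in all NRF libraries at ZT0, ZT4 and ZT8, was left in these differences. With trends of GC content, length and expression removed, 5 were called, Foxo3 no longer among them, against 7.78% of all transcripts. Blood markers moved in the same direction as the 10 genes. All 4 of 4 (Hba-a1, Hbb-bs, Hbb-bt and Alas2) were higher in DRF, with a median difference of 0.51, and their summed level was 169.4 to 1800.0 CPM in DRF mice and 146.8 to 395.1 CPM in NRF mice. Of 6 oligodendrocyte markers 3 were lower in DRF, and their summed level was 4082 to 8349.8 CPM in DRF and 5331 to 8768 CPM in NRF. Of 12 glucocorticoid response genes 4 were higher in DRF and 0 lower, with a median difference of 0.12. Of the markers of other cell types, 3 were higher in DRF and 6 lower. The shares of all transcripts were 5.65% higher and 4.95% lower. The part of these in the higher levels of the 10 genes was not tested.

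In the fasted minus fed contrast the 10 genes had a median of -0.022, against -0.0033 over all transcripts. The direction of the small differences of Insr, Foxo1, Foxo3 and Pik3r1 turned under other settings. The contrast was taken apart by phase of the day, since in the light the fasted mice were on NRF and in the dark on DRF. In the light 3 genes were called, all lower in fasted mice: Irs2 at -0.26 ± 0.057 (SE; adjusted p = 0.00187), Sesn3 at -0.35 ± 0.088 (SE; adjusted p = 0.00578) and Foxo3 at -0.10 ± 0.034 (SE; adjusted p = 0.0499), against 7.88% of all transcripts called lower and 13.3% in all. In the dark 3 genes were called, all higher in fasted mice: Txnip at 0.51 ± 0.085 (SE; adjusted p = 7.27e-05), Irs2 at 0.16 ± 0.052 (SE; adjusted p = 0.0249) and Ddit4 at 0.17 ± 0.060 (SE; adjusted p = 0.0419), against 7.02% of all transcripts called higher and 16.8% in all. A constant difference between regimens enters the phases with opposite sign. The fitted differences had the same sign in both phases for Txnip and Ddit4 and opposite signs for the other genes. In the light Ddit4 was at 0.057 ± 0.065 (SE; adjusted p = 0.608) and, like Txnip, was not called, so the sign there is uncertain. What the signs stem from was not tested. Without the 2 DRF ZT16 libraries that stood apart the dark difference was 0.52 ± 0.094 (SE; adjusted p = 0.000442) for Txnip, 0.14 ± 0.054 (SE; adjusted p = 0.129) for Irs2 and 0.13 ± 0.065 (SE; adjusted p = 0.220) for Ddit4, and Insr was called instead, at 0.089 ± 0.028 (SE; adjusted p = 0.0451). In the light the Irs2 call held in all alternatives run, the Sesn3 call was lost without replicate 3 (adjusted p = 0.0849), and the Foxo3 call was lost without replicate 2, 3 or 4 (0.106 to 0.245) and in 6 of the other alternatives. In the dark the Txnip call held in all alternatives run. The Irs2 call was lost also without replicate 2 or 4, ZT16 or ZT24 (adjusted p from 0.0680 to 0.216), and the Ddit4 call without replicate 2, 3 or 4, ZT0, ZT16 or ZT24 (0.0603 to 0.339), on the deposited scale (0.0586) and with trends removed (0.101). For Txnip the difference in the light was 0.078 ± 0.093 (SE; adjusted p = 0.627).

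**Figure D4:**
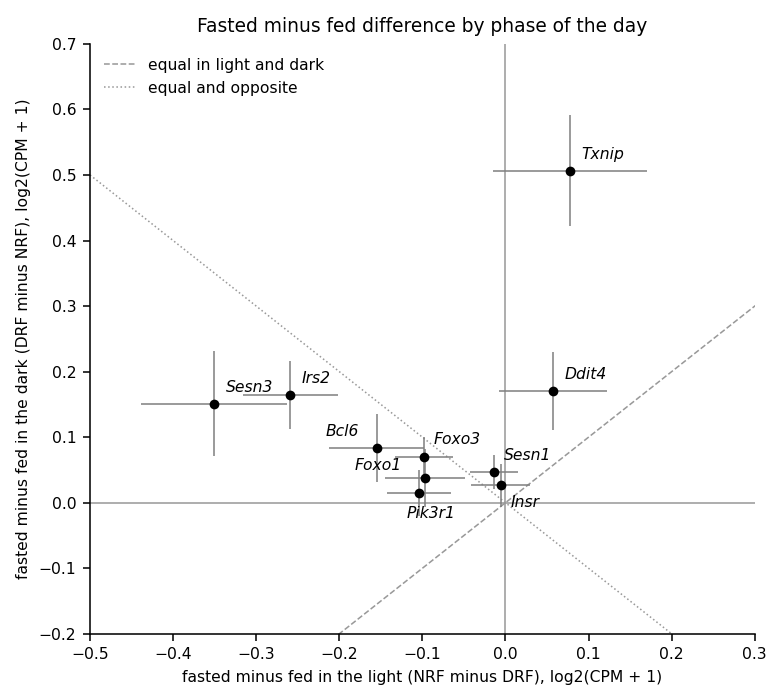
Fasted minus fed difference in the light (ZT4, ZT8 and ZT12, NRF minus DRF, horizontal) against the dark (ZT16, ZT20 and ZT0 with ZT24, DRF minus NRF, vertical), log2(CPM + 1), with bars of 1 SE for the 10 genes. The dashed line marks equal differences and the dotted line equal and opposite ones; Txnip sits at 0.078 and 0.51, and Sesn3 at -0.35 and 0.15.

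At single time points 3 of the 10 genes were called at 1 or more times: Insr at ZT0 and ZT16, Irs2 at ZT4 and Txnip at ZT24. Of all transcripts 4.53% were called at ZT0, 20.3% at ZT16, 3.95% at ZT4 and 0.276% at ZT24. The share called at 1 or more times was not counted, so the 3 genes cannot be set against it. As given above, each of these calls was lost in some alternatives, that of Insr at ZT16 without the 2 libraries that stood apart. At ZT8, ZT12 and ZT20, where 0.176%, 1.51% and 1.13% of all transcripts were called, limma called 0 of the 10 genes. At an unadjusted p under 0.05 the counts there were 2, 4 and 4, against 13.4%, 16.7% and 13.6% of all transcripts, and limma with voom weights on the recovered reads called 0 at each.

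The wider pathway was read in the same fits. Of 31 other insulin and IGF signalling genes tested (of 32 listed), 10 were lower in fasted mice (8.71% of all transcripts were) and 0 higher (7.13%). Their median difference was -0.058, and 8 differed in rhythm between regimens, against 11.1% of all transcripts. The 5 with the smallest p were Trib2, a pseudokinase that binds AKT, at -0.17 ± 0.023 (SE; adjusted p = 1.08e-06), Pdpk1, the kinase that activates AKT, at -0.12 ± 0.024 (SE; adjusted p = 0.000618), Pik3r3, another regulatory subunit of phosphoinositide 3-kinase, at -0.11 ± 0.025 (SE; adjusted p = 0.00190), Akt2, by its rhythm difference (adjusted p = 0.00349), and Inppl1, a lipid phosphatase, at -0.13 ± 0.030 (SE; adjusted p = 0.00220). The number called lower was 2 without replicate 3, 5 without replicate 4 and 6 without the 2 libraries that stood apart, and the median stayed below 0 in all alternatives run. Irs1, the other main adaptor, was lower in fasted mice, at -0.093 ± 0.027 (SE; adjusted p = 0.0145), and Igf1r, the receptor nearest to Insr, was at -0.023 ± 0.024 (SE; adjusted p = 0.527).

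Among 23 other FOXO factors and targets tested (of 26 listed), 4 were higher in fasted mice and 1 lower, with a median of 0.025. Of all transcripts 7.13% were higher and 8.71% lower. Those higher were Pnpla2, a lipase of fat stores, at 0.15 ± 0.032 (SE; adjusted p = 0.000925), Cdkn1a, a cell-cycle inhibitor, at 0.20 ± 0.060 (SE; adjusted p = 0.0160), Klf15 at 0.067 ± 0.024 (SE; adjusted p = 0.0490) and Gabarapl1, an autophagy gene, at 0.043 ± 0.015 (SE; adjusted p = 0.0434). Ccng2 was lower, at -0.14 ± 0.039 (SE; adjusted p = 0.0128). Without replicate 1, without replicate 3, without ZT24 or with the window edges left out, 1 of the list was called higher. Foxo4 was at -0.031 ± 0.024 (SE; adjusted p = 0.396), Foxo6 at -0.059 ± 0.081 (SE; adjusted p = 0.653) and Sesn2, the third sestrin, at -0.034 ± 0.032 (SE; adjusted p = 0.486).

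Of 13 relatives of Txnip and glucose-sensing factors, 2 were higher in fasted mice and 1 lower, with a median of 0.037. For this list and those that follow, the shares of all transcripts were 7.13% higher and 8.71% lower. Arrdc2, an arrestin of the same family, was higher by 0.33 ± 0.039 (SE; adjusted p = 1.20e-07), and Slc2a1, the glucose transporter of the blood-brain barrier and glia, by 0.093 ± 0.025 (SE; adjusted p = 0.00847). Arrdc4, like Txnip a target of the glucose-sensing factor MondoA, went the other way, at -0.12 ± 0.033 (SE; adjusted p = 0.0100). Of 22 genes of mTORC1 and energy sensing, 2 were higher and 1 lower, with a median of -0.015 that was above 0 after quantile normalization (0.0076) and after trends were removed (0.0015). Castor1, an arginine sensor, was higher by 0.23 ± 0.051 (SE; adjusted p = 0.00117), Prkab1, a subunit of AMP-activated kinase, was higher by 0.13 ± 0.034 (SE; adjusted p = 0.00514), and Eif4ebp2, a target of mTORC1, was lower, at -0.076 ± 0.021 (SE; adjusted p = 0.00833). Of 12 glucocorticoid response genes 5 were higher in fasted mice and 0 lower, with a median of 0.10. Those called were Tsc22d3, at 0.14 ± 0.036 (SE; adjusted p = 0.00605), Cdkn1a, given above, Sult1a1, a sulfotransferase, at 0.20 ± 0.062 (SE; adjusted p = 0.0192), Zbtb16, a zinc finger repressor, at 0.27 ± 0.095 (SE; adjusted p = 0.0479), and Per1, a clock gene, at 0.11 ± 0.040 (SE; adjusted p = 0.0499). With the window edges left out 0 of the 12 were higher and 1 lower. The 5 called lay on the same side of 0 as Txnip and Ddit4, and their part in those differences was not tested. Of 8 clock genes kept as a reference, 4 were higher in fasted mice and 0 lower, and all 8 had a shared component, against 21.2% of all transcripts. Among the cell type markers, 3 of 6 oligodendrocyte markers were higher in fasted mice, as were 1 of 5 astrocyte, 1 of 9 hypothalamic region, 1 of 4 oligodendrocyte precursor and 1 of 6 microglia markers. Lower were 1 precursor marker, 1 microglia marker and 1 of 6 endothelial markers. The summed level of the oligodendrocyte markers was 4082 to 8768 CPM in fasted mice (median 6033) and 4696 to 8196 CPM in fed mice (median 6135), and whether the markers bear on the differences above was not tested.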

How the data were processed

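RNA was sequenced from the anterior hypothalamus of 56 mice. Per the labels and the study's methods, the authors filtered reads, aligned them to GRCm38.p6 with HISAT2 and Bowtie2, estimated abundance with RSEM and normalized it between libraries. The deposited table calls its values TPM, but they are a score: log2(CPM + 1) scaled by transcript length, as whole reads were recovered from them for all 10 members in all mice (14996 genes in all; tolerance 0.05 reads), with union exon lengths from GENCODE vM21. For 2160 genes log2(CPM + 1) was computed without whole reads, and 408 genes were left out. The deposited score was used as it is for the rhythm tests within a regimen, JTK_CYCLE and Lomb-Scargle p-values (periods of 20 to 28 h) combined by Fisher's method. All other tests were limma 3.58.1 (R 4.3.3) on log2(CPM + 1), on transcripts whose deposited score reached 1 in 80% of mice or more, by a fit of the 14 groups or of a 24-h cosine per regimen, with Benjamini-Hochberg adjustment over all transcripts tested and calls at 0.05.

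Fasted groups were NRF at ZT4, ZT8 and ZT12 and DRF at ZT16, ZT20, ZT24 and ZT0, with ZT0 and ZT24 weighted as 1 time point. Groups came from the sample titles, with 4 mice each. Gene symbols came from RefSeq (17456 of 17564 genes) and promoters from RefSeq GRCm38.p6. All 10 members were named, as were up to 5 called genes of each other list by smallest p, their relatives Irs1, Igf1r, Foxo4, Foxo6, Sesn2 and Arrdc4, and the 3 transcripts most like a called member. Members and lists were chosen with earlier results of these data known. The split by phase of the day (NRF minus DRF at ZT4, ZT8 and ZT12, DRF minus NRF at the other times), the fits without the 2 DRF ZT16 libraries, Lomb-Scargle alone and voom weights were added after seeing the data. Scripts were tested on simulated data. The replicate numbers come from the labels and did not pair the mice: the median correlation of deviations was 0.0037 for mice of the same number.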

Additional observations from a re-analysis of the deposited data

Results flagged for a closer look

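Among 140 combinations of a gene and a group of 4 mice, 7 had a mouse far from the other 3 by Dixon's ratio of gap to range, where chance alone flags about 1 in 20. In Irs2 these were DRF ZT16 replicate 4, at 58.6 CPM with the next at 45.3 CPM (ratio 0.923) and one of the libraries that stood apart, DRF ZT20 replicate 1, low at 41.3 CPM (0.830), and NRF ZT24 replicate 4, low at 42.1 CPM (0.869). In Ddit4 they were DRF ZT20 replicate 3, high at 26.5 CPM (0.933), and NRF ZT0 replicate 4, high at 24.7 CPM (0.869). Bcl6 in NRF ZT20 replicate 3 was high at 35.9 CPM with the next at 26.8 CPM (0.864), and Pik3r1 in NRF ZT16 replicate 1 was low at 95.5 CPM (0.859). The 24-h rhythm of Txnip differed between DRF and NRF (limma, adjusted p = 0.00814), as described above.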

How the results depend on the processing

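Of 570 recomputed values for single genes, 523 kept their direction and their side of the threshold, 22 lost a call, 17 gained a call and 8 changed sign. None of the sign changes was of a difference that was called in the main result. For Insr the fasted minus fed difference was -0.00033 on the deposited scale and -0.038 with the window edges left out, for Foxo1 0.0092 without ZT16, for Foxo3 0.0036 after quantile normalization and 0.0022 without ZT16, and for Pik3r1 0.0041 with trends of GC content, length and expression removed. Leaving out a replicate gave -0.012 (without replicate 1) to 0.027 for Insr and -0.074 to 0.0032 (without replicate 3) for Foxo1. The cause of these changes was not tested.

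Counts of genes called moved as follows. Rhythmic in NRF: 0 with Lomb-Scargle alone (which called 0 of all transcripts) and 2 to 5 without a replicate. Rhythmic in DRF: 4 with limma's cosine, 0 in every other alternative run. Rhythm difference: 2 with trends removed (Insr in addition) and 0 to 1 without a replicate. Shared component, 7 with all mice: 5 to 6 without a replicate, 6 without ZT16, and 8 without the 2 DRF ZT16 libraries, where 31.1% of all transcripts were called. Mean level: 8 without ZT16, 8 without the 2 DRF ZT16 libraries that stood apart, and 2 to 4 without a replicate. Fasted and fed: 2 with trends removed, 2 without ZT16, 0 with the window edges left out, and 1 to 2 without a replicate. Single time points: 0 to 2 without a replicate. DRF cosine, 4 with all mice: 1 without ZT16, 2 without ZT24, 2 without the 2 DRF ZT16 libraries, and 1 to 3 without a replicate. Fasted and fed by phase, 3 in each: in the light 1 to 4 without a replicate, in the dark 5 after quantile normalization, 1 without ZT24 and 1 to 4 without a replicate. With a replicate block the fasted and fed count was 2, Ddit4 in addition (adjusted p = 0.0393). At ZT0 the block ended the call of Insr (adjusted p = 0.0517), and at ZT16 it added Ddit4 (0.0346) and Txnip (0.0494), so that 4 genes were called at 1 or more times. It added Irs2 to the NRF cosine (0.0476) and changed no other call. The shared number is not a pairing by design. With 4 mice a group and amplitudes as small as 0.07, several calls rest on single replicates.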

Other observations

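Of the 22 genes of mTORC1 and energy sensing, 4 were higher in DRF than in NRF over the 7 time points and 1 was lower, against 5.65% and 4.95% of all transcripts. Those higher were Tsc1 at 0.12 ± 0.024 (SE; adjusted p = 0.00135) and Tsc2 at 0.068 ± 0.019 (SE; adjusted p = 0.0166), which together restrain mTORC1, and Mtor at 0.082 ± 0.021 (SE; adjusted p = 0.00894) and Rptor at 0.082 ± 0.020 (SE; adjusted p = 0.00683), the kinase and its scaffold. Rheb, the activator of mTORC1 that the TSC proteins switch off, was lower, at -0.13 ± 0.038 (SE; adjusted p = 0.0213). Among the FOXO targets, Klf15 was higher in DRF, at 0.17 ± 0.023 (SE; adjusted p = 1.76e-05), while Bnip3, at -0.13 ± 0.031 (SE; adjusted p = 0.00703), and Cat, which encodes catalase, at -0.074 ± 0.015 (SE; adjusted p = 0.00138), were lower. The number of the mTORC1 list called higher was 1 without replicate 3, 1 without replicate 4 and 1 with trends of GC content, length and expression removed. These genes were chosen for naming after their values were seen, by their calls between regimens.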
